A study of Mus musculus with 12 samples.

Results

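The nitric oxide, natriuretic peptide and cGMP relaxation pathway of smooth muscle cells (SMCs) was described through 9 of its genes across 12 libraries of sorted aortic SMCs. They are *Gucy1a1* and *Gucy1b1* (formerly *Gucy1a3* and *Gucy1b3*), *Npr1*, *Npr2*, *Npr3*, *Prkg1*, *Pde5a*, *Pde3a* and *Pde1a*, taken by symbol as 9 of the 52636 gene rows of the count matrix. All 9 were among the 22320 genes that passed the filter on low counts, with at least 278 counts in every library. No member passed an adjusted p of 0.05 between genotypes or between segments, and in 1 of them, *Pde5a*, that call turned on a single library.

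The SMCs came from 3 GFPiSMC mice and 3 Tgfbr1/2iSMCKO mice on a C57BL/6J background, all 12 weeks old. Each animal gave 1 library from the ascending/arch and 1 from the descending thoracic segment, as read from equal numbers in the sample titles. Mice of both genotypes carry Myh11-CreERT2, a tamoxifen-inducible Cre driven by the smooth muscle myosin promoter, and the mT/mG reporter, which turns from a red to a green fluorescent protein in cells where Cre has acted. The floxed *Tgfbr1* and *Tgfbr2* alleles, the receptors of TGF-β, are present only in the Tgfbr1/2iSMCKO mice, so that mouse line and deletion cannot be told apart here. Tamoxifen was injected for 5 days in both genotypes. The labels pair 1 mg/d with induction at 4 weeks and 2 mg/d with 11 weeks of age, and the study describes these SMCs as taken 1 week after the disruption, which is the later induction. GFP-positive cells were sorted, between 9208 and 20000 per library, and the 4 groups of genotype and segment hold 3 libraries each.

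Nitric oxide made by the endothelium enters SMCs and binds the heme of soluble guanylyl cyclase, a dimer of an α and a β subunit that makes cGMP from GTP. Natriuretic peptides raise cGMP through receptors at the cell surface that carry their own guanylyl cyclase. cGMP activates protein kinase G, which lowers cytosolic calcium and the calcium sensitivity of the contractile apparatus, and phosphodiesterases end the signal by hydrolysis. The question put to these data is whether the transcripts of this relaxing arm differ in SMCs after loss of the TGF-β receptors or between both ends of the thoracic aorta.

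Total counts per library ranged from 20467027 to 31392396. *Tgfbr1* and *Tgfbr2*, the targeted genes, were at 235.1 ± 35.3 and 106.3 ± 13.3 CPM (counts per 1000000, scaled with TMM factors) in the 6 GFPiSMC libraries, given as mean ± SD, and at 251.5 ± 33.0 and 89.0 ± 12.5 CPM in the 6 of Tgfbr1/2iSMCKO. Neither log2 fold change passed edgeR's test (*Tgfbr1* 0.10, adjusted p = 0.790, and *Tgfbr2* −0.26, adjusted p = 0.233). *Tgfbr2* was lower in all 3 Tgfbr1/2iSMCKO libraries of each segment, and 6.14% of all genes tested separated the genotypes in both segments in the same direction. A count over the whole gene does not tell deleted from retained exons, so these values do not measure recombination. The 7 SMC markers summed to 33862.5 to 47783.4 CPM. The 7 endothelial markers summed to 55.0 to 106.1 CPM, of which *Pecam1* made up 44.4 to 95.7 CPM, and the 6 macrophage markers to 5.47 to 17.7 CPM. Fibroblast markers were higher in ascending/arch (68.2 to 218.1 CPM) than in descending libraries (11.8 to 36.4 CPM), and the 5 cardiomyocyte markers summed to 36.0 to 216.6 CPM, with *Ryr2* at 27.9 to 76.1, *Tnnt2* at 5.98 to 104.9, *Actc1* at 0.269 to 69.9 and *Myl7* at 0 CPM. The part of these other markers in the results was not tested. Since 1 mouse gave 2 libraries, p values over the 12 measure the spread between libraries and not only between mice. In bulk RNA, fewer cells of a type and less RNA per cell cannot be told apart.

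*Gucy1b1* and *Gucy1a1*, which encode the β1 and α1 subunits of soluble guanylyl cyclase, lie next to each other on chromosome 3 in the same direction. *Gucy1b1* (ENSMUSG00000028005.13) spans 82032006 to 82074689 and *Gucy1a1* (ENSMUSG00000033910.13) 82092427 to 82145789 on the minus strand of GRCm38, with 17737 bases and 0 annotated genes between them. Because the subunits work as a dimer and each has its own start, the bases upstream of both are shown, from RefSeq on GRCm38.p6, limited to those before the start in RefSeq as well as in GENCODE M21 (chr3:82145790-82145900 for *Gucy1a1* and chr3:82074712-82074961 for *Gucy1b1*, both minus strand). Capitals mark a GC box (GGGCGG, or CCGCCC on the other strand) and the short SMAD box (CAGAC or GTCTG), the letters bound by Sp1-type factors and by SMAD proteins of the TGF-β pathway.
Gucy1a1: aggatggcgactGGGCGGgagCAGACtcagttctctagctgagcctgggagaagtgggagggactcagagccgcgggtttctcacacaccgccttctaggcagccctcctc
Gucy1b1: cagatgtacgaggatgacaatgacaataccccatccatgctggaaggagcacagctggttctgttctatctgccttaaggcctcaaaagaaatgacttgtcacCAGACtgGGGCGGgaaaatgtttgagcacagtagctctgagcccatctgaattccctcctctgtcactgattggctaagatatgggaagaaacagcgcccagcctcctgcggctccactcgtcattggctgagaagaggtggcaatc
Within the 250 bases before its RefSeq start, each of both genes holds 1 GC box and 1 SMAD box, and neither holds a TATA box (TATAAA or TTTATA) or a CArG box, the element bound by serum response factor. Of the 32851 windows of the same length in the RefSeq table, 32.7% hold a GC box, 42.2% a SMAD box, 13.0% both, 12.4% a TATA box and 1.47% a CArG box. These short motifs are common, and a match is a description of the letters and not of binding. The table had a window for 8 of the 9 members.

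Soluble guanylyl cyclase was the most abundant part of the pathway among the members. Per kilobase of exon, the median over 12 libraries was 127.5 CPM/kb for *Gucy1b1* and 81.2 CPM/kb for *Gucy1a1*, followed by *Pde3a* at 46.7, *Pde5a* at 34.2, *Npr1* at 22.2, *Npr2* at 11.2, *Pde1a* at 9.01, *Prkg1* at 3.62 and *Npr3* at 1.68 CPM/kb. By mean level per length in GFPiSMC SMCs, *Gucy1b1* lay above 97.8% and *Gucy1a1* above 96.5% of the genes tested, and *Npr3* above 57.5%. The lowest *Gucy1b1* library in either genotype (113.3 CPM/kb) was above the highest *Gucy1a1* library (98.1 CPM/kb), and the lowest *Gucy1a1* library (67.3 CPM/kb) above the highest *Pde3a* library (61.3 CPM/kb). Further down, neighbours overlapped. *Pde5a* ranged from 2.96 to 48.0 and *Npr1* from 10.6 to 46.2 CPM/kb, and *Npr2* (9.14 to 15.1) overlapped *Pde1a* (5.70 to 11.2). *Prkg1* (2.38 to 7.74 CPM/kb) stood above the highest value of *Npr3* (2.42 CPM/kb) in 10 of 12 libraries. With the longest transcript in place of the union of exons, the means in GFPiSMC SMCs stood in the same order as these medians.

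**Figure D1:**
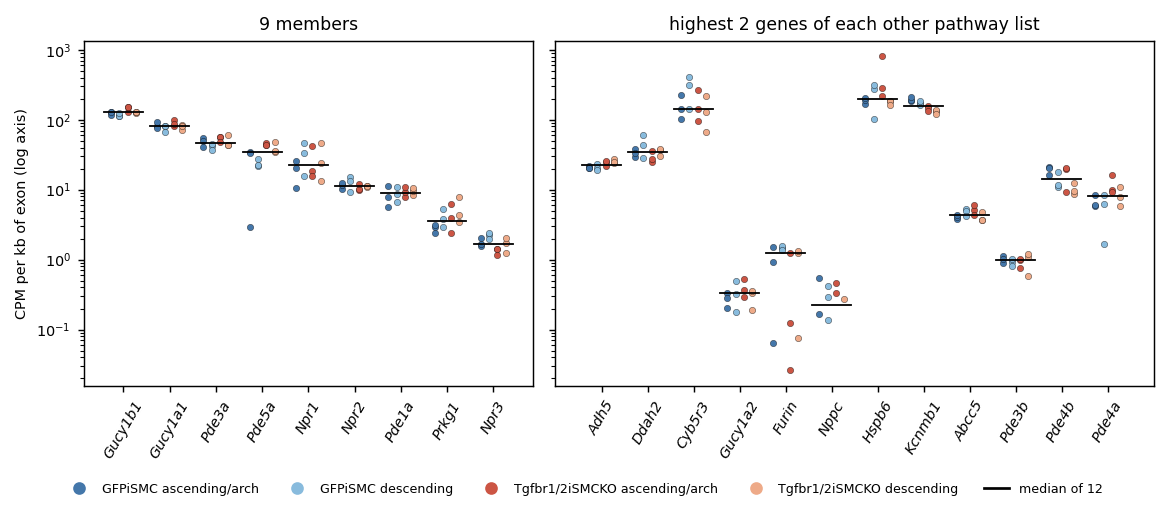
Level per length (CPM per kb of exon, log axis) of the 9 members, ordered by their median, and of the highest pair of genes in each other list of the pathway. Points are libraries coloured by group and lines are medians of 12 libraries, from 127.5 CPM/kb for *Gucy1b1* to 1.68 CPM/kb for *Npr3*. Values of 0 cannot be drawn on this axis.

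*Gucy1a1* was nearly level across all libraries. In GFPiSMC SMCs it was at 564.2, 648.1 and 531.1 CPM in ascending/arch replicates 1, 2 and 3 and at 567.6, 568.8 and 469.1 CPM in descending ones. In Tgfbr1/2iSMCKO SMCs it was at 562.9, 683.8 and 614.7 CPM in ascending/arch and at 494.1, 576.1 and 560.1 CPM in descending libraries. The genotypes overlapped in both segments and the highest library was 1.46 times the lowest. The log2 fold change between genotypes, Tgfbr1/2iSMCKO over GFPiSMC with segment as a covariate, was 0.06 (SE 0.09, 95% interval −0.14 to 0.26, adjusted p = 0.863 by edgeR), an interval that in fold runs from 0.907 to 1.20. Its SE was smaller than that of 99.0% of the genes tested.

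*Gucy1b1* was at 502.8, 458.8 and 513.0 CPM in ascending/arch and 444.9, 448.8 and 482.3 CPM in descending GFPiSMC SMCs. In Tgfbr1/2iSMCKO SMCs the values were 498.5, 605.7 and 605.0 CPM in ascending/arch and 485.7, 512.3 and 511.0 CPM in descending libraries. In the descending segment all 3 Tgfbr1/2iSMCKO libraries lay above all 3 GFPiSMC libraries, where 14.9% of all genes tested did not overlap between genotypes. In ascending/arch the groups overlapped. The log2 fold change was 0.17 (SE 0.08, −0.00 to 0.35), with an unadjusted p of 0.0521 and an adjusted p of 0.318 by edgeR. It was 0.21 (SE 0.12) in ascending/arch and 0.13 (SE 0.12) in descending SMCs. The ratio of *Gucy1a1* to *Gucy1b1* per length was between 0.548 and 0.796 in the 12 libraries. The medians were 0.673 in GFPiSMC and 0.626 in Tgfbr1/2iSMCKO libraries, and the log2 difference of −0.11 over 3 animals against 3 did not differ beyond the spread (exact permutation p = 0.50, two-sided, smallest possible 0.10). The Pearson correlation of both subunits over the 12 libraries was 0.43. The genes of the whole table whose log2 CPM followed *Gucy1a1* most closely over the 12 libraries were *Mfsd1* (r = 0.927), *Snx13* (0.872) and *Cep76* (0.863), out of 9209 genes with a mean log2 CPM above 3.

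The 3 natriuretic peptide receptors differed in level and in how they varied. *Npr1* (ENSMUSG00000027931.12, chromosome 3, 90450591 to 90465866) encodes the guanylyl cyclase receptor of atrial and B-type natriuretic peptides. It was at 121.7, 50.6 and 97.4 CPM in ascending/arch and 161.3, 220.0 and 75.7 CPM in descending GFPiSMC SMCs, while Tgfbr1/2iSMCKO SMCs held 88.2, 75.7 and 198.8 CPM in ascending/arch and 115.2, 64.0 and 221.0 CPM in descending libraries. Every group held low and high libraries, the highest being 4.37 times the lowest. Between genotypes the log2 fold change of *Npr1* was 0.12 (SE 0.36, −0.67 to 0.90, adjusted p = 0.936 by edgeR), so that a change to 0.630 or to 1.87 times the level lies within the interval. It was 0.43 (SE 0.52) in ascending/arch and −0.19 (SE 0.52) in descending SMCs. An antisense gene, *Gm16048*, shares 11.7% of the exon bases of *Npr1* and was at 0.166 to 12.3 CPM, and the kit does not mark strand, so reads of the shared part cannot be assigned. The same limit holds for 5.82% of the exon bases of *Pde3a* (*Gm28523*, 1.27 to 7.38 CPM) and 5.70% of *Npr2* (*Gm12473*, 0 to 0.289 CPM). Genes on the other strand also share 3.42% of the exon bases of *Npr3* and 0.559% of *Pde5a*.

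*Npr2* (ENSMUSG00000028469.15, chromosome 4, 43631935 to 43651244) encodes the guanylyl cyclase receptor of C-type natriuretic peptide. It was steadier, at 42.7 to 70.5 CPM (median 55.7) in the 6 GFPiSMC libraries and at 46.1 to 55.8 CPM (median 51.8) in the 6 Tgfbr1/2iSMCKO libraries. The genotypes overlapped, with a log2 fold change of −0.13 (SE 0.13, −0.42 to 0.16, adjusted p = 0.757 by edgeR).

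*Npr3* (ENSMUSG00000022206.6, chromosome 15, 11839896 to 11907287) encodes the clearance receptor, which binds natriuretic peptides and removes them without making cGMP. It was the lowest of the members per length and in the 12-library fit of edgeR the only one with an unadjusted p under 0.05 between genotypes. It was at 14.7, 15.5 and 19.3 CPM in ascending/arch and 21.1, 22.7 and 18.6 CPM in descending GFPiSMC SMCs. In Tgfbr1/2iSMCKO SMCs it was at 13.5, 13.5 and 10.8 CPM in ascending/arch and 11.8, 16.1 and 19.0 CPM in descending libraries. In ascending/arch all 3 Tgfbr1/2iSMCKO libraries lay below the 3 GFPiSMC libraries, where 19.0% of all genes tested did not overlap between genotypes. In descending SMCs replicate 3 of Tgfbr1/2iSMCKO lay above replicate 3 of GFPiSMC. The log2 fold change was −0.40 (SE 0.16, −0.75 to −0.05), or 0.756-fold, with an unadjusted p of 0.0273 that did not pass adjustment (0.220 by edgeR). The estimate was −0.39 (SE 0.24) in ascending/arch and −0.41 (SE 0.24) in descending SMCs. With counts summed per animal, it was −0.38 (SE 0.19, unadjusted p = 0.0818). The ratio of *Npr1* to *Npr3* per length ran from 6.41 to 36.3 over the 12 libraries and did not differ between genotypes beyond the spread (exact permutation p = 0.40, two-sided).

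*Prkg1* (ENSMUSG00000052920.14, chromosome 19, 30564489 to 31765033) encodes cGMP-dependent protein kinase I, the kinase through which cGMP relaxes smooth muscle. It was at 25.8, 32.2 and 34.5 CPM in ascending/arch and 41.6, 57.2 and 32.0 CPM in descending GFPiSMC SMCs. The Tgfbr1/2iSMCKO values were 26.2, 42.2 and 67.1 CPM in ascending/arch and 47.4, 37.1 and 84.1 CPM in descending libraries. Both libraries of Tgfbr1/2iSMCKO replicate 3 were the highest of the 12, and the other 4 libraries of that genotype lay within the GFPiSMC range. The log2 fold change was 0.46 (SE 0.25, −0.09 to 1.00, unadjusted p = 0.0923, adjusted p = 0.430 by edgeR). It was 0.55 (SE 0.37) in ascending/arch and 0.36 (SE 0.37) in descending SMCs, and in the latter it turned to −0.07 without Tgfbr1/2iSMCKO replicate 3.

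Among the phosphodiesterases, *Pde5a* had the largest estimate of all 9 members and the largest range. *Pde5a* (ENSMUSG00000053965.10, chromosome 3, 122728947 to 122859374) encodes the cGMP-specific enzyme that sildenafil inhibits. It was at 338.2, 29.1 and 328.3 CPM in ascending/arch GFPiSMC SMCs and at 214.7, 223.2 and 271.6 CPM in descending ones. Tgfbr1/2iSMCKO SMCs had 431.9, 460.9 and 434.8 CPM in ascending/arch and 334.9, 471.8 and 355.9 CPM in descending libraries. The ascending/arch library of GFPiSMC replicate 2 held 849 counts and stood 7.37-fold below the lowest of the other 11 libraries. In each segment, all 3 Tgfbr1/2iSMCKO libraries lay above all 3 GFPiSMC libraries. Groups that did not overlap were common in this table. Of all genes tested, 19.0% did not overlap between genotypes in ascending/arch, 14.9% in descending and 6.14% in both segments in the same direction. Across segments the genotypes touched, since 334.9 CPM in a descending Tgfbr1/2iSMCKO library was below 338.2 CPM in an ascending/arch GFPiSMC library.

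The log2 fold change of *Pde5a* over 12 libraries was 0.82 (SE 0.39, −0.02 to 1.67), or 1.77-fold, with an unadjusted p of 0.0556 and an adjusted p of 0.329 by edgeR. It was 0.93 (SE 0.58) in ascending/arch and 0.71 (SE 0.57) in descending SMCs. Both contrasts come from a fit of all 12 libraries with 1 shared estimate of the spread. The SE in descending SMCs therefore also holds the spread from the low ascending/arch library. Without the 1 low library, a choice made after seeing the data, the estimate fell to 0.57 (SE 0.12, 0.32 to 0.83), or 1.49-fold, and the adjusted p to 0.0165. Without both libraries of GFPiSMC replicate 2 it was 0.54 (SE 0.13, adjusted p = 0.0473). Under the other 16 alternatives the adjusted p lay between 0.18 and 0.48, with estimates of 0.73 to 1.14, and counts summed per animal gave 0.84 (SE 0.29, unadjusted p = 0.0182, adjusted p = 0.273), the one member under an unadjusted 0.05 in that fit. The call on *Pde5a* therefore turned on that library, while the Tgfbr1/2iSMCKO SMCs were higher under every setting run.

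**Figure D2:**
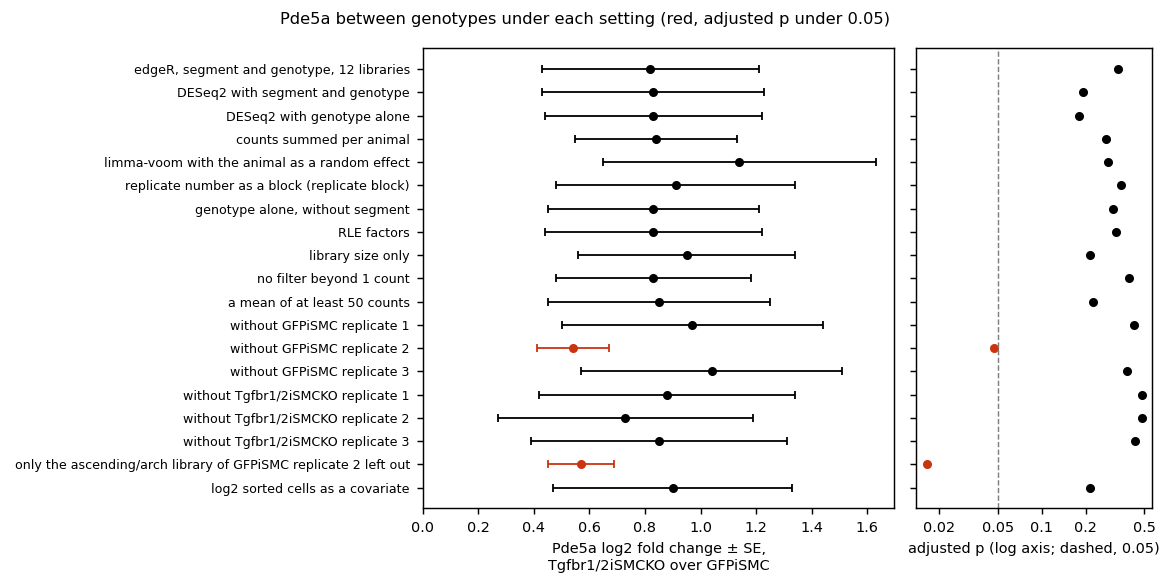
Left, log2 fold change of *Pde5a* between genotypes over both segments (point, with SE) under each setting. Right, the adjusted p of the same fit on a log axis, with the 0.05 threshold dashed. The 2 settings in red, both without the low ascending/arch library of GFPiSMC replicate 2, gave 0.0473 and 0.0165, and the fit of all 12 libraries gave 0.329.

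*Pde3a* (ENSMUSG00000041741.10, chromosome 6, 141249269 to 141507448) encodes a phosphodiesterase of both cAMP and cGMP that cGMP inhibits, which links both second messengers. It was at 517.1, 702.0 and 628.8 CPM in ascending/arch and 528.1, 477.0 and 575.0 CPM in descending GFPiSMC SMCs, and at 718.4, 730.7 and 615.1 CPM and 559.7, 780.5 and 557.5 CPM in Tgfbr1/2iSMCKO SMCs. The genotypes overlapped in both segments, with a log2 fold change of 0.21 (SE 0.11, −0.03 to 0.46, unadjusted p = 0.0841, adjusted p = 0.410 by edgeR). *Pde1a* (ENSMUSG00000059173.19, chromosome 2, 79834453 to 80129458) encodes a phosphodiesterase that calcium and calmodulin activate. It was at 34.3 to 67.6 CPM (median 49.8) in GFPiSMC and at 47.5 to 66.4 CPM (median 56.4) in Tgfbr1/2iSMCKO libraries, with a log2 fold change of 0.15 (SE 0.18, −0.23 to 0.54, adjusted p = 0.797 by edgeR).

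Shares were taken of the summed level per length of 10 genes counted here as cGMP-hydrolysing phosphodiesterases, with the cAMP-specific enzymes left out. A share of transcript is not a share of cGMP hydrolysis. *Pde3a* made up 45.2 to 56.0%, *Pde5a* 29.5 to 41.4%, *Pde1a* 7.09 to 15.1% and the other 7 together 2.40 to 3.34% in 11 of the 12 libraries. In the ascending/arch library of GFPiSMC replicate 2 the shares were 81.8% *Pde3a*, 4.40% *Pde5a* and 8.46% *Pde1a*. The share of *Pde5a* was 38.5 to 41.4% in the 6 Tgfbr1/2iSMCKO libraries and 4.40 to 38.6% in the 6 GFPiSMC libraries. Over animals the difference was 0.73 on the log2 scale (exact permutation p = 0.10, two-sided, the smallest 3 against 3 can give), and without the low library it was 0.26 (p = 0.10 by the same exact test). The share of *Pde3a* differed by −0.21 and that of the other 7 by −0.23 with the same exact p of 0.10, and without the low library by −0.10 and −0.05 (exact p = 0.10 and 0.60). Without the low library, GFPiSMC replicate 2 enters these differences by its descending library alone, so segment is partly mixed with genotype.

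**Figure D3:**
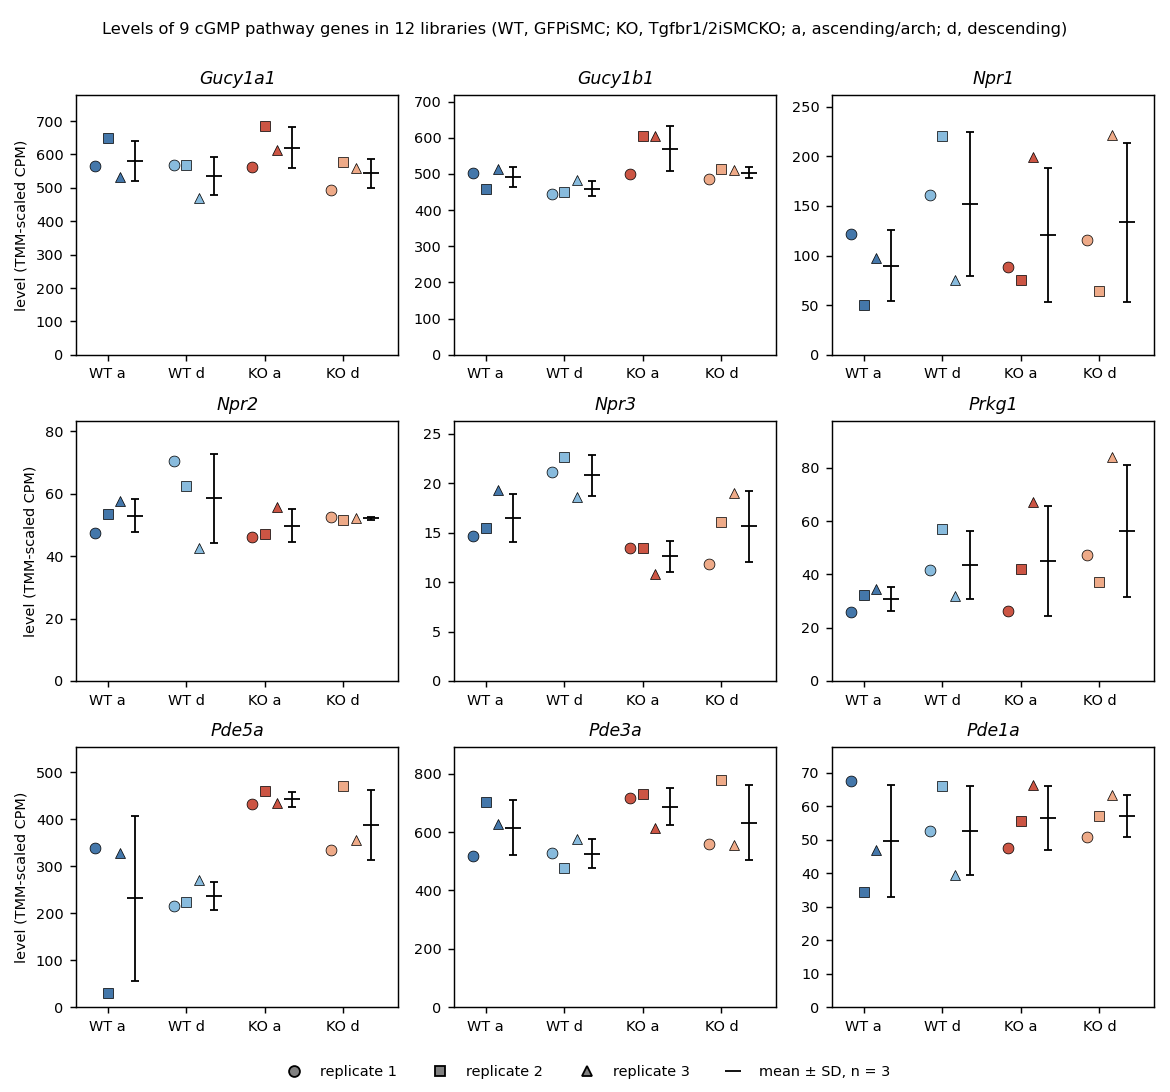
Level (TMM-scaled CPM, axes from 0) of each member in the 12 libraries, with marker shapes for replicates, WT for GFPiSMC, KO for Tgfbr1/2iSMCKO, and the mean ± SD of 3 libraries beside each group. The low *Pde5a* library of GFPiSMC ascending/arch is at 29.1 CPM against 214.7 to 471.8 CPM in the other 11, and *Npr1* ranges from 50.6 to 221.0 CPM without following genotype.

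Over both segments, 0 of the 9 members passed an adjusted p of 0.05 between genotypes by edgeR's quasi-likelihood test, with 1 at an unadjusted p under 0.05, against 5.03% of all 22320 genes at the adjusted threshold and 16.1% at the unadjusted one. DESeq2 and limma-voom also gave 0 members, each with 3 at an unadjusted p under 0.05, against 18.2% and 14.7% of all genes. The median log2 fold change of the members was 0.15, beside 0.04 over all genes tested, with 7 of 9 above 0. In ascending/arch 0 of 9 passed, with 0 at an unadjusted p under 0.05, against 1.41% of all genes at the adjusted threshold. In descending SMCs 0 of 9 passed, with 0 at an unadjusted p under 0.05, against 1.72% of all genes. Counts summed per animal gave 0 members, against 1.86% of 24275 genes. A p that misses the threshold does not show equal levels. In the fit over both segments, the 95% intervals of *Gucy1a1*, *Gucy1b1*, *Npr2*, *Pde3a* and *Pde1a* lay between 0.749 and 1.45 times the GFPiSMC level. Those of *Npr1*, *Prkg1* and *Pde5a* reached 1.87, 2.00 and 3.18-fold. That fit treats libraries of the same mouse as independent. With counts summed per animal, the intervals of the genes named first ran from 0.722 (*Npr2*) to 1.53 times (*Pde1a*) that level. Those of *Npr1*, *Prkg1* and *Pde5a* then reached 1.99, 2.25 and 2.84-fold.

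**Figure D4:**
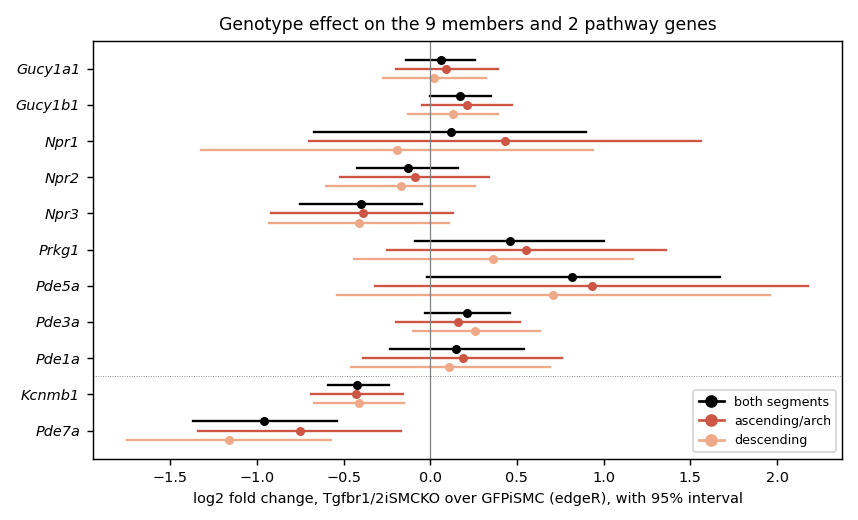
Log2 fold change between genotypes with its 95% interval (edgeR) for the 9 members and, under the dotted line, the 2 pathway genes that passed the test over both segments. Black is the fit over both segments, and the red shades are the contrasts within a segment. Of the members, the interval over both segments leaves out 0 for *Npr3*, at −0.75 to −0.05.

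The genotype effect did not differ measurably between segments for any member. By edgeR's test of the difference (descending minus ascending/arch), 0 of 9 members passed, with 0 at an unadjusted p under 0.05, and of all genes 0% passed. The estimates ran from −0.62 for *Npr1* (SE 0.73) to 0.10 for *Pde3a* (SE 0.24), with −0.22 (SE 0.81) for *Pde5a*, and DESeq2 gave 0 members as well.

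Descending and ascending/arch SMCs were compared within each genotype. In GFPiSMC SMCs 0 of 9 members passed edgeR's test, with 0 at an unadjusted p under 0.05, against 0.376% of all genes. In Tgfbr1/2iSMCKO SMCs 0 of 9 passed, with 0 at an unadjusted p under 0.05, against 0.112%. DESeq2 gave 0 members in both. The largest estimate was for *Npr1*, at 0.76 (SE 0.52) in GFPiSMC and 0.14 (SE 0.52) in Tgfbr1/2iSMCKO SMCs. *Prkg1* was at 0.50 (SE 0.37) and 0.31 (SE 0.37), *Npr3* at 0.33 (SE 0.24) and 0.31 (SE 0.24), and *Pde3a* at −0.23 (SE 0.17) and −0.12 (SE 0.17), in the order GFPiSMC and Tgfbr1/2iSMCKO. The comparisons in both genotypes take their means from different libraries. They share the estimate of the spread from the fit of all 12 libraries, so their tests are not independent.

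Several members varied with the number of sorted cells in a library. *Npr1* was at 220.0 CPM in the library of 9208 cells, at 198.8 and 221.0 CPM in those of 11825 and 12000 cells, and at 50.6, 88.2 and 64.0 CPM in the 3 libraries of 20000 cells. Over the 12 libraries its log2 CPM correlated with the log2 number of cells at r = −0.88 and Spearman's rho = −0.84 (permutation p = 0.000420 and 0.00135, adjusted over the 9 members 0.00378 and 0.0121). Within GFPiSMC r was −0.98 and within Tgfbr1/2iSMCKO −0.83, over 6 libraries each, and without the 2 libraries farthest from the median number of cells it was −0.84. *Pde3a* went the other way (r = 0.81, rho = 0.77, permutation p = 0.00246 and 0.00512, adjusted 0.0111 and 0.0230), with 0.95 within GFPiSMC, 0.67 within Tgfbr1/2iSMCKO and 0.68 without the 2 farthest libraries. *Pde1a* had r = −0.69 (rho = −0.65, permutation p = 0.0129 and 0.0242, adjusted 0.0386 and 0.0726), with −0.87 and −0.78 within the genotypes and −0.72 without the 2 farthest libraries.

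*Prkg1* had r = −0.60 (rho = −0.60, permutation p = 0.0416 and 0.0444, adjusted 0.0935 and 0.10), with −0.65 within GFPiSMC, −0.91 within Tgfbr1/2iSMCKO and −0.60 without the 2 farthest libraries. *Gucy1a1* and *Gucy1b1* were at r = −0.04 and 0.04 (permutation p = 0.904 and 0.907). The libraries of 1 animal are not independent, and the relation is not particular to these genes, since the median absolute r with the number of cells was 0.49 over 9210 well-expressed genes. Of those genes, 96.3% had a smaller absolute r than *Npr1*, 88.4% than *Pde3a*, 72.9% than *Pde1a* and 62.2% than *Prkg1*. The first principal component of those genes held 36.7% of their variance and correlated at 0.81 with the log2 number of cells. It correlated at −0.95 with *Npr1*, −0.83 with *Prkg1*, −0.73 with *Pde1a* and 0.58 with *Pde3a*. Its scores were lowest in both libraries of Tgfbr1/2iSMCKO replicate 3 (−0.47 and −0.48) and in the descending library of GFPiSMC replicate 2 (−0.31), and highest in the ascending/arch library of GFPiSMC replicate 2 (0.39) and the descending one of Tgfbr1/2iSMCKO replicate 2 (0.34). Among the members, *Npr1* also correlated with *Prkg1* (r = 0.72), *Pde1a* (0.73) and *Pde3a* (−0.74) over the 12 libraries. The part of the first component in these correlations was not tested.

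With the log2 number of cells added as a covariate, a choice made after seeing the data, the SE of *Npr1* fell from 0.36 to 0.17 and its log2 fold change between genotypes was 0.39 (unadjusted p = 0.0393, adjusted p = 0.171 by edgeR). *Prkg1* was at 0.53 (SE 0.18, adjusted p = 0.0816), *Pde1a* at 0.29 (SE 0.12, adjusted p = 0.164) and *Gucy1b1* at 0.19 (SE 0.07, adjusted p = 0.0874). In this fit 0 of 9 members passed, with 5 at an unadjusted p under 0.05 against 24.9% of all genes, while the genes called in the whole table rose from 1123 to 2721. What the number of cells stands for, in yield, time of sorting or RNA input, was not tested.

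**Figure D5:**
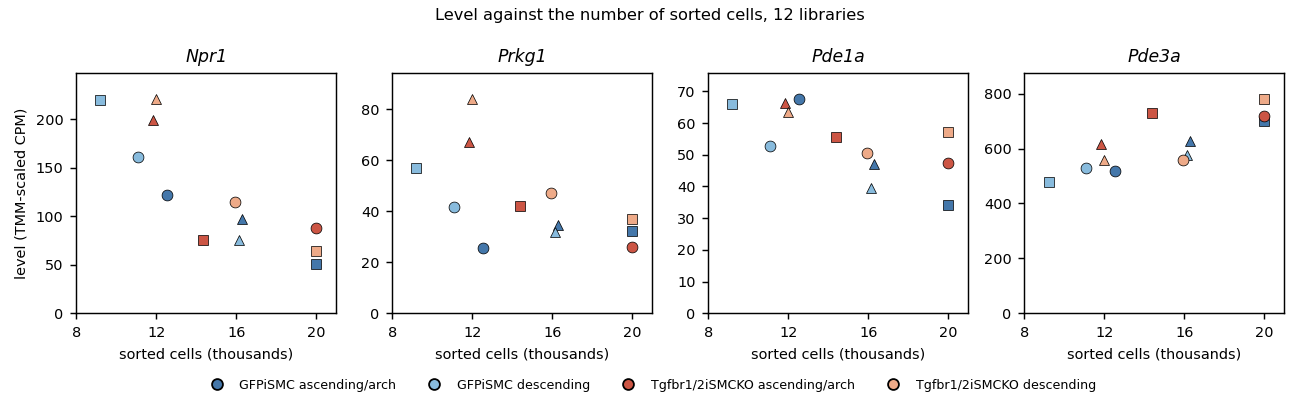
Level (TMM-scaled CPM, vertical axes from 0) of 4 members against the number of sorted cells divided by 1000, 1 point per library, coloured by group and shaped by replicate. *Npr1*, *Prkg1* and *Pde1a* were lower and *Pde3a* higher in libraries of more cells (r = −0.88, −0.60, −0.69 and 0.81 on log2 scales, 12 libraries).

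The rest of the pathway was followed in 6 lists with 47 genes, of which 42 passed the filter. Over both segments 0 were higher and 2 lower in Tgfbr1/2iSMCKO SMCs by edgeR (adjusted p under 0.05), with 7 at an unadjusted p under 0.05, and their median log2 fold change was 0.07. These counts are close to the shares of all genes, 5.03% and 16.1%. Both genes that passed the test fell in all 6 Tgfbr1/2iSMCKO libraries below all 6 GFPiSMC libraries, a separation that 4.39% of all genes showed in one direction or the other. *Kcnmb1* encodes the β1 subunit of the large-conductance calcium-activated potassium channel, a target of protein kinase G that hyperpolarizes SMCs. It was at 670.0 to 888.4 CPM in GFPiSMC and at 498.0 to 657.1 CPM in Tgfbr1/2iSMCKO libraries (log2 fold change −0.42, SE 0.08, adjusted p = 0.00752). *Pde7a*, a cAMP-specific phosphodiesterase, was at 17.6 to 29.9 and 9.57 to 17.1 CPM (−0.96, SE 0.19, adjusted p = 0.00937). Without single animals, *Kcnmb1* missed the threshold only without GFPiSMC replicate 3 (adjusted p = 0.0681), and *Pde7a* without GFPiSMC replicate 1 or 2 or Tgfbr1/2iSMCKO replicate 2 (0.0631, 0.0568 and 0.05). With counts summed per animal neither passed (*Kcnmb1* −0.41, adjusted p = 0.148, and *Pde7a* −0.94, adjusted p = 0.0955), and with library size as the only scaling *Kcnmb1* did not (−0.29, adjusted p = 0.0902). That scaling moved the median of all genes from 0.04 to 0.16.

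By list, 1 of 10 kinase targets and relaxation effectors passed (*Kcnmb1*, lower), 1 of 7 tested cAMP-specific phosphodiesterases (*Pde7a*, lower), 0 of 9 other cGMP phosphodiesterases and exporters, 0 of 6 tested genes of nitric oxide synthesis and removal, 0 of 6 tested other guanylyl cyclases with the heme reductase, and 0 of 4 tested natriuretic peptide genes. Within a segment 0 of 42 passed in either, with 4 in ascending/arch and 3 in descending SMCs at an unadjusted p under 0.05 (11.4% and 10.7% of all genes), and DESeq2 called 1 in each. The share of all genes that DESeq2 called within a segment is not given here. Between segments, *Pde1c*, a calcium-activated phosphodiesterase of proliferating SMCs, was at 13.1, 22.9 and 17.4 CPM in ascending/arch and 1.07, 1.16 and 2.53 CPM in descending GFPiSMC SMCs (−3.49, SE 0.47, adjusted p = 0.00631 by edgeR). In Tgfbr1/2iSMCKO SMCs it was at 12.7, 8.54 and 18.7 against 2.32, 3.63 and 1.62 CPM (−2.40, SE 0.45, adjusted p = 0.0802, and 3.49e-05 by DESeq2). The groups did not overlap in either genotype, and the difference between genotypes was 1.09 (SE 0.61, adjusted p = 1.000). The share of all genes that separate the segments in this way was not counted. The call in GFPiSMC SMCs was lost without replicate 1 (−3.44) and without replicate 2 (−3.08). Beside this stand the fibroblast markers, which were also higher in ascending/arch, and their part was not tested.

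The enzymes that make nitric oxide and the natriuretic peptides themselves had few counts in these sorted cells. *Nos1* had 17 to 48, *Nos2* 0 to 7 and *Nos3*, the endothelial enzyme, 8 to 60 counts per library, while *Nppa* had 0 to 22, *Nppb* 0 to 5 and *Nppc* 0 to 14. The pair of genes with the highest level per length is given for each list. *Ddah2*, which degrades inhibitors of nitric oxide synthase, had a median of 34.6 CPM/kb and *Adh5*, which reduces S-nitrosoglutathione, 22.6 CPM/kb. *Cyb5r3*, which reduces the heme of soluble guanylyl cyclase to the form that binds nitric oxide, was at 141.6 CPM/kb, close to *Gucy1b1*, with a range of 66.7 to 402.1 CPM/kb. The other α subunit, *Gucy1a2*, was at 0.329 CPM/kb, against 81.2 CPM/kb for *Gucy1a1*. *Hspb6*, a small heat shock protein that protein kinase G phosphorylates, was at 195.3 and *Kcnmb1* at 158.3 CPM/kb. *Pde4b* (14.2) and *Pde4a* (8.18) led the cAMP-specific enzymes, *Abcc5* (4.36) and *Pde3b* (1.00) the other cGMP enzymes and exporters, and *Furin* (1.24) and *Nppc* (0.221) the natriuretic peptide genes.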

How the data were processed

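RNA of 9208 to 20000 sorted SMCs per library was sequenced from 3 GFPiSMC and 3 Tgfbr1/2iSMCKO mice, with 2 segments each. Per the labels and the methods of the study, the authors aligned reads with HISAT2 to mm10 (GRCm38) and quantified GENCODE M15 genes with StringTie, and the deposited values are whole-number counts for 52636 genes without normalization. How StringTie's coverage became counts is not given in the sources used here, so a count is not a direct tally of fragments. The authors compared groups with DESeq2.

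Symbols, coordinates, and exon lengths were read from GENCODE M21, which shares the build (52489 genes matched), and upstream sequences from RefSeq. Counts were fitted with edgeR 4.0.16 in R 4.3.3: filterByExpr on the 4 groups, TMM factors, and quasi-likelihood F tests with segment and genotype as covariates or with 4 group means, and Benjamini-Hochberg adjustment over 22320 genes at 0.05. The SE was taken as the estimate divided by the root of its F statistic. Contrasts of the 4 group means share 1 estimate of the spread per gene over the 12 libraries. Genes varied between libraries with a common biological coefficient of 0.442. Levels per length are CPM per kb of the union of exons. DESeq2 1.42.0 and limma 3.58.1 were alternatives, beside other scalings, filters, a block for the replicate number or the animal, counts summed per animal, and each animal left out. Single values were tested with exact permutation of 3 animals against 3 (two-sided), and correlations with 100000 permutations over the 12 libraries, in scipy 1.17.1. The steps were tested on simulated counts. These held a set spread and no effect of animal or segment, so they check the steps and not the error rates in these data.

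The members and gene lists were chosen with earlier results of these data known. All members were named, and of the other pathway lists the genes that passed a test and the 2 with the highest level per length. Equal numbers within a genotype were read as 1 animal. After removal of group means, residuals over 9210 genes correlated between them at 0.187, −0.242 and 0.0240 for GFPiSMC and 0.0612, 0.377 and 0.661 for Tgfbr1/2iSMCKO. Nothing ties equal numbers of different genotypes together.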

Additional observations from a re-analysis of the deposited data

How the results depend on the processing

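Of 422 estimates of the 9 members under an alternative, 400 kept their direction and their side of the threshold, 20 changed sign, and 2 newly passed, both of *Pde5a*. Members past the threshold over both segments rose from 0 to 1 (*Pde5a*) without only the ascending/arch library of GFPiSMC replicate 2, with a range of 0 to 1 as single animals were dropped. With those drops, pathway genes past it numbered 1 to 2 over both segments, 0 to 1 in descending SMCs, and 0 to 1 between segments in GFPiSMC SMCs. Pathway genes past the threshold over both segments numbered 2, against 4 by DESeq2 on genotype alone, 0 with counts summed per animal, and 5 with the number of sorted cells as a covariate. Of all genes, 5.03% passed in the edgeR fit of 12 libraries and 1.86% with counts summed per animal. With the covariate, the genes called in the whole table rose as well. DESeq2 called 1 in ascending/arch, 1 in descending, and 1 between segments in Tgfbr1/2iSMCKO SMCs, where edgeR called 0, and the cell covariate gave 2, 3 and 1. The shares of all genes behind the other counts are not given here, so the counts are not read as particular to the pathway. The cause of these changes was not tested.

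Most changes of sign were in *Npr1*. Dropping single animals gave −0.45 to 0.42 over both segments, −0.14 to 0.72 in ascending/arch, −0.79 to 0.17 in descending SMCs, and −1.01 to 0.03 for the difference between segments. The same ranges were −0.01 to 0.13 for *Gucy1a1* and −0.00 to 0.20 for *Tgfbr1* over both segments, −0.07 to 0.61 for *Prkg1* in descending SMCs, and −0.68 to 0.26 for *Pde5a* and −0.07 to 0.22 for *Pde3a* in the difference between segments. Without only the low library, *Npr1* was at −0.04 over both segments, and the difference between segments at 0.30 for *Pde5a* and −0.00 for *Pde3a*. With the cell covariate, *Npr1* was at 0.52 in descending SMCs, 0.24 in the difference, and −0.10 between segments in GFPiSMC SMCs, *Prkg1* at −0.06 in the last, and *Pde3a* at −0.14 in the difference.

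With the replicate number as a block, *Npr1* turned to −0.02 and *Pde5a* was at 0.91 (adjusted p = 0.348 by edgeR), and no call on a member or pathway gene changed. Equal numbers of different genotypes correlated at −0.527 to 0.216, and the numbers do not pair the animals. Depth limits genes with few counts, such as *Nppa* (0 to 22), *Nos2* (0 to 7) and *Pde4c* (0 to 7).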

Other observations

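The low *Pde5a* library was not the only case of its kind. Of 9210 genes with a mean log2 CPM above 3, 91 (0.988%) had 1 library more than 4-fold below the lowest of the other 11, and 0 had 1 library more than 4-fold above the highest of the other 11. The low libraries were spread over all 12, with 18 genes in the ascending/arch library of GFPiSMC replicate 2, 14 in the descending library of GFPiSMC replicate 3, 13 in the descending library of Tgfbr1/2iSMCKO replicate 2, and 1 to 11 in the others. Among the pathway and marker genes followed here, the 91 include *Pde5a*, *Dcn* and *Mrvi1*, which encodes the substrate through which protein kinase G inhibits calcium release. *Furin*, chosen here after its values were seen, fell into separate levels, at 0.240, 0.704 and 1.16 CPM in 3 Tgfbr1/2iSMCKO libraries and 0.587 CPM in 1 GFPiSMC library, and at 8.59 to 14.2 CPM in the other 8.

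*Itpr1*, the calcium release channel that *Mrvi1* inhibits, was named after its values were seen. All 6 Tgfbr1/2iSMCKO libraries lay below all 6 GFPiSMC libraries (240.5 ± 9.79 against 296.2 ± 36.3 CPM, mean ± SD), with a log2 fold change of −0.30 (SE 0.09) that did not pass adjustment (adjusted p = 0.0823 by edgeR). Of all genes tested, 4.39% separated the genotypes in this way in either direction.

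Of the marker lists, the pericyte list summed to 2833.9 to 5483.2 CPM in GFPiSMC and 1278.0 to 3001.2 CPM in Tgfbr1/2iSMCKO libraries. Its largest part was *Rgs5*, at 2340.5 to 4916.6 CPM in GFPiSMC and 828.5 to 2192.6 CPM in Tgfbr1/2iSMCKO libraries. By edgeR *Rgs5* was lower and *Kcnj8* higher in Tgfbr1/2iSMCKO SMCs. *Abcc9*, the next in level, did not pass (log2 fold change 0.05, adjusted p = 0.964 by edgeR), and *Higd1b* was at or near 0. The adipocyte list summed to 92.0 to 162.1 against 142.1 to 178.4 CPM. In it *Cidea* was higher (mean 29.9 CPM in GFPiSMC and 96.7 CPM in Tgfbr1/2iSMCKO libraries). *Fabp4* went the other way (mean 93.8 and 68.7 CPM) and did not pass edgeR's test, and *Adipoq*, *Plin1* and *Ucp1* were at most at 0.948 CPM. The immediate early genes summed to 305.0 to 1247.9 against 220.2 to 892.9 CPM. The cardiomyocyte list summed to 36.0 to 94.6 against 54.5 to 216.6 CPM. The genotypes did not overlap in ascending/arch (82.0 to 94.6 against 107.8 to 216.6 CPM) and overlapped in descending libraries (36.0 to 81.9 against 54.5 to 74.5 CPM). Of single genes tested, 19.0% did not overlap between genotypes in ascending/arch. *Actc1* was higher over both segments (log2 fold change 4.20, adjusted p = 0.00161 by edgeR), and *Ryr2* was at −0.60 (adjusted p = 0.119). In the endothelial list *Cdh5*, with at most 79 counts in a library, was higher in Tgfbr1/2iSMCKO, at 0.497 to 2.71 CPM against at most 0.513 CPM. No other endothelial marker passed edgeR's test. *Pecam1*, which held most of the CPM of the list, was at a mean of 79.3 CPM in GFPiSMC and 72.5 CPM in Tgfbr1/2iSMCKO libraries (log2 fold change −0.13, adjusted p = 0.800 by edgeR). The estimates of *Kdr*, *Tie1*, *Vwf*, *Egfl7* and *Emcn* were higher in Tgfbr1/2iSMCKO SMCs.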
